A study of Homo sapiens with 27 samples.

Results

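Temozolomide (TMZ) given once to WT cells was compared with solvent given once to the same cells. The 6 libraries, 3 with TMZ and 3 with solvent, were picked by the group and exposure number in their labels and are 6 of 27 in the series. The cells were LN-229, an established glioblastoma line. WT here names the transfection control of a line carrying MGMT, so each group is a set of cultures of 1 cell line and no normal tissue is included. TMZ was 1 mM in the medium and solvent was 1% DMSO, each added 1 time, and DNA was taken 24 h later. The series states that its replicates are biological. A further 3 libraries of purified DNA treated with 1 mM TMZ (naked DNA) served as the positive control, 1 each from non-transfected, WT and MGMT-transfected LN-229 cells, so the group is not of WT DNA alone. They formed no group in any test, but positions marked in them were used to read neighbouring bases and as the set that sites were matched against.

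TMZ methylates DNA bases, and O6-methylguanine is the minor product that accounts for most of its toxicity in glioblastoma cells. The lesion pairs with thymine during replication, mismatch repair acts on the resulting pair, and the MGMT protein can reverse the damage by taking over the methyl group. In the assay, fragments with the lesion are enriched with an antibody, and a polymerase that stalls at the modified base marks its position. A site is therefore a position on 1 strand with the base found there, and a list of sites at guanine (G sites) is a map of candidate lesions together with background stops.

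The libraries differed in depth, and replicate 1 stood apart. Chromosomes 1 to 22 and the mitochondrial chromosome held, at a score of 30 or more, 1856595, 4489278 and 5013318 sites in TMZ replicates 1 to 3, and 597437, 4035583 and 3762614 in solvent replicates 1 to 3. In solvent replicate 1, 46.6% of all sites reached that score, against 77.0% and 85.6% in the other solvent libraries. The TMZ replicates had 65.2%, 78.4% and 85.4%. Of the G sites of solvent replicate 1, 36.2% were also marked in naked DNA, against 2.94% and 2.88% in solvent replicates 2 and 3 and 4.35% to 5.79% in the TMZ libraries. Solvent replicate 1 also shared 22169 G positions with TMZ replicate 1, which were 13.4% of its own G sites and 2.66% of those of the TMZ library. Libraries with different numbers shared 0.058% to 1.123% of G sites. Whether carry-over between libraries gave the shared positions was not tested. The main results are therefore given with and without replicate 1. A position and strand occurs once in a list, so a number of sites is a number of distinct positions and not of reads or molecules.

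The sequences below show what a marked guanine looks like, and were chosen because a position came back in several TMZ libraries. In promoter windows of protein-coding genes on chromosomes 1 to 22, running from 250 bases before to 50 after a start, 96 guanines were marked in 2 or 3 TMZ libraries and in no solvent library of the comparison. Of these, 1 was marked in all 3. Lists with fewer sites meet less often, and 5 guanines were marked in 2 solvent libraries and in no TMZ library. The marked guanine is in capitals, each window runs 5′ to 3′ on the marked strand and lies wholly before the gene start, and the sequences are those of RefSeq on GRCh38.p14. The 8 windows of the TMZ set are those marked in the most libraries, first of TMZ and then of all 27, which include naked DNA.
NEUROD6, chr7:31340945-31340965, minus strand, 3 TMZ libraries: tgaaaccgaaGcagttcgagg
E2F3, chr6:20401678-20401698, plus strand, 2 TMZ libraries: atgatgcacgGcagccaatgg
IL36RN, chr2:113059147-113059167, minus strand, 2 TMZ libraries: taaggcctagGgaggggccct
WIF1, chr12:65121345-65121365, plus strand, 2 TMZ libraries: gagcctgcgaGagcaggagga
INF2, chr14:104688185-104688205, minus strand, 2 TMZ libraries: gccagccaagGcaggcgctca
DUXB, chr16:75701515-75701535, minus strand, 2 TMZ libraries: taaattgaaaGctatttaaga
POLL, chr10:101588486-101588506, plus strand, 2 TMZ libraries: gagctggaagGgtctcggcgg
LOC124902669, chr11:46237153-46237173, minus strand, 2 TMZ libraries: ggtcctgcatGgtctgtgcac
The 5 windows of the solvent set, which are all of it, follow for comparison.
ZNF219, chr14:21104819-21104839, minus strand, 2 solvent libraries: ctgggggagaGgaagaaatgc
GPR176, chr15:39920304-39920324, plus strand, 2 solvent libraries: ccctcctccaGggtggtcagc
KDM4C, chr9:6757880-6757900, minus strand, 2 solvent libraries: acagcttaaaGgtgcccggca
GLS2, chr12:56488175-56488195, plus strand, 2 solvent libraries: aaggaggggcGgagcgagcga
CCDC38, chr12:95942757-95942777, minus strand, 2 solvent libraries: gcagagccccGggagggtact
In 7 of the 8 TMZ windows the base before the marked guanine is a purine, as it is in 3 of the 5 solvent windows. The 8 TMZ windows are the top of 96 ranked by the number of libraries, while the 5 solvent windows are their whole set, so these shares are not comparable. These windows illustrate the pattern and carry no test. Across the genome recurrence was rare. Of all G positions in the TMZ libraries, 5287651 were seen in 1 library, 24913 in 2 and 118 in 3, and 4.83%, 13.6% and 30.5% of these were also marked in naked DNA.

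Guanine was the base marked most often after TMZ and was among the less marked bases in solvent replicates 2 and 3. G sites made up 44.8%, 41.9% and 52.6% of sites in TMZ replicates 1 to 3, and 27.8%, 19.9% and 19.1% in the solvent replicates. All 3 TMZ libraries lay above all 3 solvent libraries, and the lowest solvent share was that of replicate 3. The means were 46.4% ± 5.51 (SD, n = 3) and 22.3% ± 4.803 (SD, n = 3), a difference of 24.2 percentage points. Naked DNA had 69.0% ± 1.67 (SD, n = 3). By the exact two-sided permutation test the difference had p = 0.1, the smallest that 3 libraries against 3 can give, and 0.157 after Benjamini-Hochberg adjustment over the 11 single values compared. Without replicate 1 the shares were 47.2% and 19.5%, a difference of 27.7 points, and 2 against 2 cannot give p below 0.333. Counting error was small beside the spread between libraries: the widest 95% Wilson interval, in solvent replicate 1, ran from 27.7% to 27.9%, and it covers counting error only.

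The shares of the other bases fell, and their sum has to fall when the guanine share rises. Adenine went from 26.7% ± 1.09 to 19.8% ± 1.53 (SD, n = 3), cytosine from 18.8% ± 1.80 to 12.2% ± 1.48 and thymine from 32.2% ± 2.38 to 21.6% ± 2.56. In none of these did the groups overlap, and each had an exact permutation p of 0.1 (0.157 adjusted). Without replicate 1 the differences were -7.69, -7.91 and -12.1 points. The other bases did not fall in equal proportion. The ratio of adenine to cytosine sites was 1.55, 1.62 and 1.73 in the TMZ replicates and 1.48, 1.47 and 1.31 in the solvent replicates. These did not overlap, and naked DNA had 4.72, 3.22 and 3.10. Thymine was the base marked most often in all 3 solvent libraries. Guanine shares on the forward and the reverse strand were close, at 52.5% and 52.6% in TMZ replicate 3 and 19.1% and 19.2% in solvent replicate 3. The guanine share was higher under TMZ on each of the 22 autosomes with no overlap between groups, and the difference ran from 23.5 points on chromosome 4 to 25.3 points on chromosome 22.

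**Figure D1:**
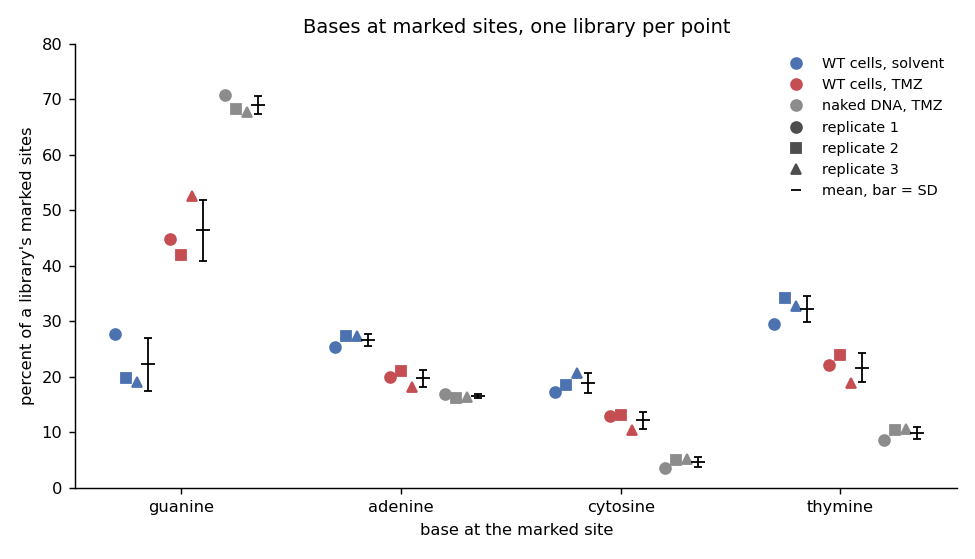
Percent of each library's marked sites at guanine, adenine, cytosine and thymine (1 point per library, marker shape for the replicate number, dash and bar for mean and SD). Guanine lies at 41.9% to 52.6% with TMZ and 19.1% to 27.8% with solvent, and thymine falls from a mean of 32.2% to 21.6%.

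The guanines marked after TMZ sat behind purines. Guanine alkylation is known to depend on the base before it, which makes the neighbours a second readout that does not use the base shares. Neighbours were taken where naked DNA marks the adjacent position, since no genome sequence was used. Positions marked in naked DNA are mostly guanine (69.0%) or adenine (16.5%), so the levels of the purine shares depend on this reading, and those in known sequence, given afterwards, were lower in both groups. The share with a purine directly before was 89.6%, 87.2% and 91.0% in the TMZ replicates and 79.8%, 71.8% and 72.5% in the solvent replicates. The groups did not overlap, and solvent replicate 1 was the highest of the controls. The means were 89.3% ± 1.92 and 74.7% ± 4.45 (SD, n = 3), 14.6 points apart (exact permutation p = 0.1, adjusted 0.157), and 17.0 points apart without replicate 1. The share with a purine directly after was 64.1% ± 1.27 and 67.1% ± 1.79 (SD, n = 3). There the groups overlapped, and the difference of -2.99 points had an exact permutation p of 0.2. The overlap depended on the setting: with no score minimum the difference was -3.80 points, and with shared positions of the same-numbered library of the other treatment left out it was -4.10 points, each with an exact permutation p of 0.1.

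The bases before the guanine could be read from known sequence in the promoter windows, where 100% of marked bases equalled the RefSeq base. All guanines of these windows have a purine before them in 58.4% of cases. Marked guanines had guanine before them in 46.7%, 44.1% and 47.0% of cases in the TMZ replicates and in 38.3%, 29.8% and 29.97% in the solvent replicates. Adenine before the site rose from 27.001% ± 1.60 to 32.2% ± 0.93 (SD, n = 3), with no overlap. Cytosine before it went from 16.9% ± 2.42 to 9.85% ± 0.86, and thymine from 23.5% ± 3.88 to 12.0% ± 1.36, again with no overlap. Cytosine after the site was the 1 base there that was higher without overlap, at 30.4% ± 1.05 with TMZ and 24.5% ± 1.92 with solvent (SD, n = 3). In naked DNA the bases before were guanine in 48.9%, adenine in 30.4%, cytosine in 9.70% and thymine in 11.1%. For each of these bases before the site the TMZ mean was nearer to that of naked DNA than the solvent mean was. After the site this did not hold for cytosine, at 26.96% in naked DNA, or for guanine, at 37.2% with TMZ, 38.7% with solvent and 40.2% in naked DNA. Without replicate 1 the differences between TMZ and solvent were 15.6 points for guanine before the site and 5.91 points for cytosine after it.

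Over the 10 bases on either side, the groups differed most at the position just before the guanine. There the purine share was 78.2% ± 2.23 with TMZ, 59.7% ± 6.36 with solvent and 79.2% ± 1.32 in naked DNA (SD, n = 3). At 2 bases before it was 56.0% ± 0.76 with TMZ and 51.0% ± 1.18 with solvent. At 3 bases before, the values were 52.5% ± 0.28 and 52.6% ± 1.65. At 2 bases after the guanine, TMZ had the lower share, 51.4% ± 0.66 against 56.8% ± 2.13. At each position from 6 to 10 bases after, and from 8 to 10 bases before, TMZ had the higher share without overlap. At 10 bases after, the shares were 54.4% ± 0.79 and 50.5% ± 1.14. At 10 bases before, they were 54.7% ± 0.67 and 52.9% ± 0.43.

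**Figure D2:**
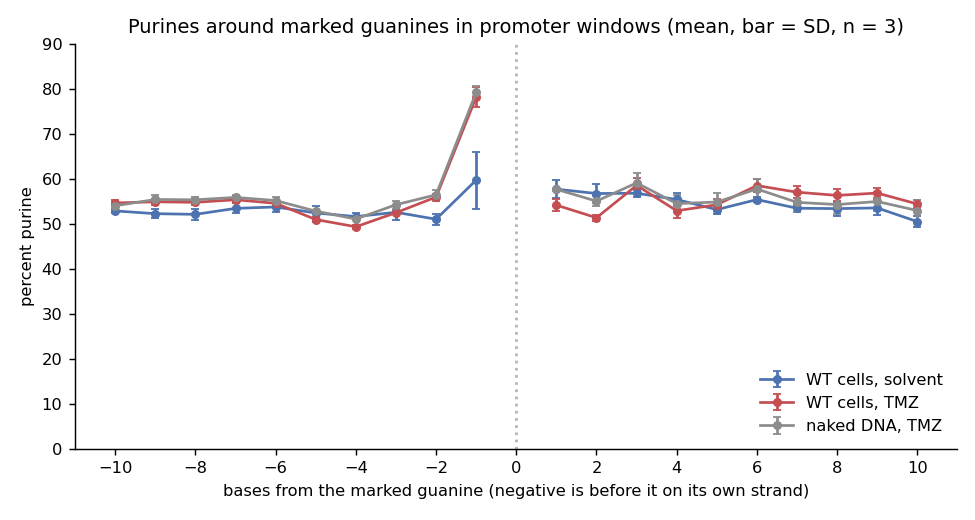
Percent of purines at each position from 10 bases before to 10 bases after marked guanines in promoter windows, as mean and SD of 3 libraries per group. At the position just before the guanine TMZ lies at 78.2% and naked DNA at 79.2%, above solvent at 59.7%, and the 3 curves run close together at most other positions.

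Taking both neighbours together, in promoter sequence the ratio of TMZ to solvent was highest for guanine in GGC and lowest for guanine in TGT, with CGT close to it. Among 16 contexts, 12 did not overlap between groups in the promoter windows (75.0%), 5 of them higher with TMZ and 7 lower. None reached an adjusted exact permutation p of 0.05, which 3 against 3 cannot give, and the smallest was 0.133. The marking rate is the share of guanines of a context that were marked, relative to all guanines of the windows. For GGC it was 1.52, 1.44 and 1.46 in the TMZ replicates and 0.996, 0.758 and 0.664 in the solvent replicates. All TMZ libraries were higher, so a guanine between guanine and cytosine went from below to above the mean of all promoter guanines. The share of GGC among marked guanines was 1.825 times that in solvent, followed by AGC at 1.51 times and GGT at 1.40 times. For AGC the rate was 1.35 ± 0.04 with TMZ and 0.90 ± 0.13 with solvent, and for GGT it was 1.51 ± 0.04 and 1.08 ± 0.06 (SD, n = 3).

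Guanine after a pyrimidine had a lower mean rate with TMZ in every such context, and only TGC of these overlapped between groups. For TGT the rate was 0.418, 0.555 and 0.398 in the TMZ replicates and 1.09, 1.33 and 1.17 in the solvent replicates. All 3 solvent libraries were above the mean of promoter guanines and all 3 TMZ libraries were well below it. By the TMZ rate alone TGA was lowest at 0.36 ± 0.06, with CGT and CGA also below TGT, and GGT lay above GGC. The share of TGT was 0.382 times that in solvent, that of CGT 0.384 times and that of TGA 0.444 times. Without replicate 1 CGT was lowest at 0.308 times, TGT was at 0.381 times, and GGC was still highest at 2.03 times. CGT holds the CpG dinucleotide, where cytosine methylation takes place in human DNA, and its rate was 0.39 ± 0.06 with TMZ and 1.02 ± 0.30 with solvent (SD, n = 3). These shares rest on 4496 to 13617 guanines per TMZ library and 807 to 2774 per solvent library. With naked DNA as the source of neighbours, 9 of 16 contexts did not overlap (56.2%). The highest 3 were then GGC at 1.63 times, GGT at 1.45 times and AGG at 1.22 times, and the lowest CGA at 0.334 times, CGT at 0.363 times and TGA at 0.369 times, from 130 to 2444 guanines per library. Of these last contexts CGA and TGA overlapped between groups and CGT did not. The order also moved with other sources of neighbours: AGC at 2.01 times was above GGC at 1.77 times when they came from solvent libraries of the other cell groups, and CGT was lowest at 0.260 times when they came from all 21 other libraries.

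**Figure D3:**
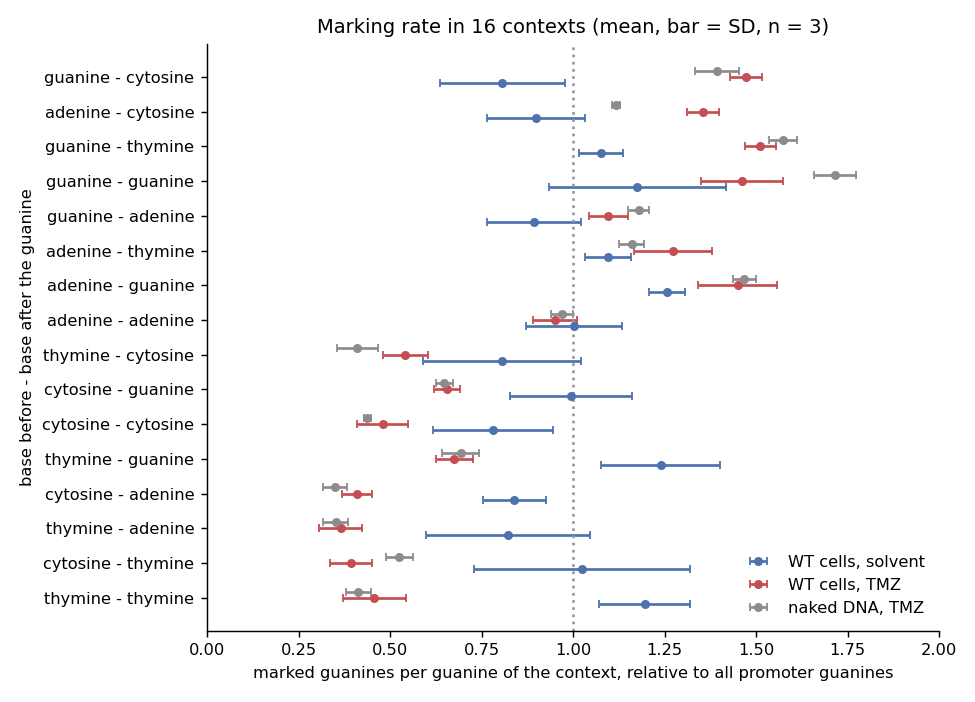
Marking rate of guanines by the base before and the base after, relative to all guanines of the promoter windows (mean and SD of 3 libraries), ordered by the ratio of TMZ to solvent. The purine-led contexts lie at the top with TMZ near or above 1, and the pyrimidine-led ones at the bottom with TMZ at 0.36 to 0.68.

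Protein-coding genes, whose bodies cover 43.9% of the sequence used, held more G sites per base than the sequence between them in every library. The log2 ratio of the density in genes to that between genes was 0.27, 0.19 and 0.26 in the TMZ replicates and 0.24, 0.11 and 0.16 in the solvent replicates. Solvent replicate 1 lay within the range of the TMZ libraries, so the groups overlapped. The means of 0.24 ± 0.04 and 0.17 ± 0.06 (SD, n = 3) differed by 0.08 on the log2 scale, with an exact permutation p of 0.2, by 0.09 without replicate 1, and by 0.14 with no score minimum (exact permutation p of 0.3). Naked DNA had 0.29. Set against the sites at other bases of the same library, the log2 ratio was 0.10, 0.10 and 0.10 with TMZ and 0.09, 0.05 and 0.06 with solvent. These did not overlap, and the means were 0.03 apart (exact permutation p = 0.1, adjusted 0.157; 0.04 apart without replicate 1). With no score minimum they were 0.01 apart, with an exact permutation p of 1. Naked DNA had 0.07 on this measure, the same as the solvent mean to 2 decimals.

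Within genes, G sites were fewer on the transcribed strand. The log2 ratio of transcribed to other strand, over 15100 genes with a known strand, was -0.28, -0.23 and -0.22 in the TMZ replicates and -0.13, -0.16 and -0.03 in the solvent replicates. The groups did not overlap, and solvent replicate 3 was closest to balance. The means of -0.24 ± 0.03 and -0.11 ± 0.07 (SD, n = 3) differed by -0.13, which was also the value without replicate 1. Sites at the other bases had a difference of -0.10 between TMZ and solvent on the same measure, and naked DNA had -0.17 at guanine. The strand measure and the distances from gene starts were chosen after the files had been seen and are given without a p. The number of guanines on each strand was not corrected for.

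G sites were densest just behind gene starts. In the 250 bases after 21040 starts, their density over the autosomal mean was 2.01, 1.45 and 1.88 in the TMZ replicates and 1.74, 1.04 and 1.36 in the solvent replicates. Solvent replicate 1 exceeded TMZ replicate 2, so the groups overlapped. The means were 1.78 ± 0.29 with TMZ, 1.38 ± 0.35 with solvent and 2.31 ± 0.22 in naked DNA (SD, n = 3), and the first 2 were 1.39 times apart without replicate 1. At 10 to 20 kb after the start the ratio of the means was 1.06. Sites at the other bases lay near or below the autosomal mean there in the cells, at 1.04 ± 0.16 with TMZ, 0.76 ± 0.16 with solvent and 1.44 ± 0.23 in naked DNA (SD, n = 3). Their ratio of TMZ to solvent in the first 250 bases was 1.36, against 1.29 for G sites. GC content near starts was not corrected for.

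**Figure D4:**
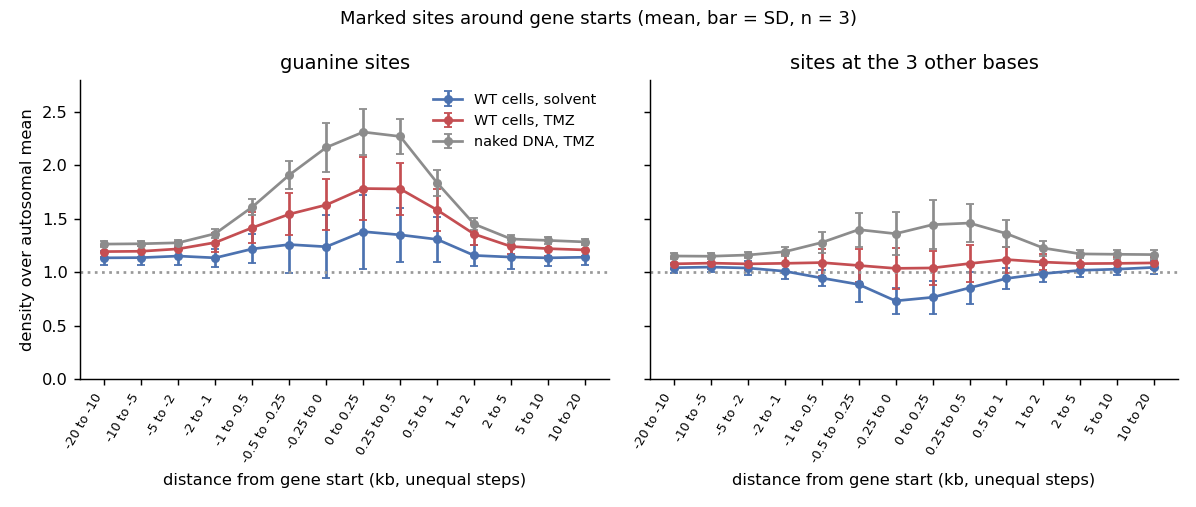
Density of marked sites over the autosomal mean in windows from 20 kb before to 20 kb after gene starts, for guanine sites (left) and the other bases (right), as mean and SD of 3 libraries. In the first 0.25 kb guanine sites reach 1.78 with TMZ, 1.38 with solvent and 2.31 in naked DNA.

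At the scale of 1 Mb, differences in G density were small, and how many bins passed the test depended on the fit. Of 2752 bins, 1 was called at an adjusted p of 0.05 with limma's voom (0.0363%), and 513 had an unadjusted p below 0.05. With sample quality weights in voom 454 bins were called, 237 higher and 217 lower with TMZ, and 13 were called when positions shared with the same-numbered library of the other treatment were left out. The log2 fold change lay between -0.29 and 0.33 in the central 95% of bins, with a median standard error of 0.09, and 2 bins (0.0727%) passed a 2-fold change. The called bin, chr12:20000001-21000000 on GRCh38, holds the phosphodiesterase gene PDE3A and the organic anion transporter genes SLCO1C1 and SLCO1B3. It had 216, 585 and 718 G sites in the TMZ replicates and 64, 333 and 260 in the solvent replicates. Scaled to library size all 3 TMZ libraries were lower, with a log2 fold change of -0.45 ± 0.07 (SE) and a limma adjusted p of 0.0066. Without replicate 1 the log2 fold change was -0.39 with a limma adjusted p of 0.0719, and a fit on only the 6 libraries gave 0.287, so the call ends in both. Without replicate 1 the count was again 1, of another bin on chromosome 20.

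The regional shifts leaned with gene cover and with the number of G sites in naked DNA. Across bins, the log2 fold change of TMZ over solvent had r = 0.38 with the share of a bin covered by protein-coding genes and r = 0.468 with the log2 number of G sites in naked DNA. In the fifth of bins with least gene cover, G density over the autosomal mean was 0.762 ± 0.0403 with TMZ and 0.813 ± 0.0526 with solvent (SD, n = 3). In the fifth with most, it was 1.117 ± 0.0168 and 1.095 ± 0.0251. The groups overlapped in both classes: TMZ replicate 2 at 0.809 exceeded solvent replicate 1 at 0.757 in the first, and solvent replicate 1 at 1.122 exceeded TMZ replicate 2 at 1.098 in the other. Among replicates 2 and 3 the groups did not overlap in either class. Naked DNA had 0.721 and 1.14 in these classes. Relative to sites at other bases, no bin of 2749 was called (0.0%, limma-trend), with 174 at an unadjusted p below 0.05, and r was 0.113 with gene cover and 0.109 with naked DNA. Chromosome 17, which is rich in genes, held 3.37% of G sites with TMZ and 3.17% with solvent, and chromosome 4, which is poor in genes, 5.60% and 5.77%. Those were the chromosomes with the highest and lowest log2 ratio, 0.09 and -0.04, and both overlapped between groups. The 3 of 22 chromosomes that did not overlap were 1, 9 and 12, with log2 ratios of 0.01, 0.03 and -0.03.

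No single gene was called. Of 16470 genes with enough sites, 0 passed an adjusted p of 0.05 for G density in limma's voom (0.0%), and 1234 had an unadjusted p below 0.05. A limma-trend fit with median-of-ratios library sizes also called 0, with 990. Relative to other bases 0 of 14412 genes passed in limma-trend (0.0%), with 804 at an unadjusted p below 0.05. The median standard error of a gene's log2 fold change was 0.38, so a count of 0 says little about single genes at this depth, and log2 differences above 2 went uncalled. The 3 values per direction with the smallest unadjusted p are given as a description. ACTN4, which encodes an actin crosslinker, had 39, 75 and 141 G sites with TMZ and 5, 8 and 23 with solvent, a log2 fold change of 1.18 ± 0.29 (SE). RAB11B, a GTPase gene of recycling endosomes, had a log2 fold change of 2.05 ± 0.51, and ULK1, a kinase gene of autophagy, 2.01 ± 0.51. Both rest on few sites. RAB11B had 13, 21 and 26 G sites with TMZ and 0, 1 and 2 with solvent, and ULK1 16, 19 and 57 against 0, 2 and 4. ADAM32 had -0.84 ± 0.20, the readthrough gene SLCO1B3-SLCO1B7, which lies partly in the called bin, -0.69 ± 0.17, and SEPTIN14 -0.94 ± 0.23. Their limma adjusted p was 0.468 in each case.

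Relative to the other bases, the 3 genes of smallest unadjusted p in the upward direction were FBXW10B at 1.74 ± 0.35 (log2, SE), BCL2L15 at 2.41 ± 0.51 and MCM3, a subunit of the replicative helicase, at 2.21 ± 0.51. In the other direction they were WDFY1 at -0.96 ± 0.23, IFTAP at -1.18 ± 0.29 and NUP133, a nuclear pore component, at -1.04 ± 0.27. All had a limma adjusted p of 0.863. FBXW10B had 7, 21 and 23 G sites with TMZ and 0, 3 and 1 with solvent, and BCL2L15 9, 9 and 14 against 0, 2 and 0. MCM3 had 10, 33 and 30 G sites with TMZ and 0, 9 and 3 with solvent. The fits at 0 sites depend on the prior of 0.5 sites and set no bound. Genes with so few solvent sites, RAB11B and ULK1 among them, can pass the filter through libraries in which they are high.

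The HOX genes, which encode the transcription factors of body patterning and lie in 4 GC-rich clusters, had the largest difference in G density among 13 gene lists. Summed gene by gene over their 39 members, G sites came to 199, 331 and 656 in the TMZ replicates and 25, 104 and 92 in the solvent replicates. Their G density over the autosomal mean was 2.12, 1.56 and 2.20 with TMZ and 1.34, 1.15 and 1.13 with solvent. No solvent library reached the lowest TMZ library. The means were 1.96 ± 0.35 and 1.21 ± 0.11 (SD, n = 3), 1.62 times apart, against 2.19 ± 0.12 in naked DNA, and the difference of 0.752 was 0.737 without replicate 1. Of the 13 lists, HOX was the 1 whose G density did not overlap between groups when all replicates were used. As a share this is no more than among single genes, of which 8.6% did not overlap and were higher and 4.03% lower. Without replicate 1, the lists of long neuronal and olfactory receptor genes did not overlap either and were lower with TMZ. Those of ribosomal protein and keratin genes did not overlap and were higher. Between 2 libraries and 2 such a split has an exact permutation p of 0.333, so these further lists say little. Sites at other bases in HOX genes did overlap, at 1.40 ± 0.23 and 1.17 ± 0.29. Neighbouring HOX genes overlap in the annotation and share sites, so they do not count as independent. A site in shared sequence was counted for each of its genes, so the sums are not numbers of distinct positions. The density and the guanine share of the list weight such sequence more.

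Among HOX genes the members with most G sites were HOXC4, HOXB3, HOXA3 and HOXC5. HOXC4 had 34, 49 and 100 G sites with TMZ and 2, 16 and 8 with solvent. Its density was 2.47 times the autosomal mean with TMZ and 1.02 times with solvent, a log2 fold change of 1.06 ± 0.32 (SE) with a limma adjusted p of 0.510. HOXB3 had 0.86 ± 0.31, HOXA3 0.62 ± 0.31 and HOXC5 1.34 ± 0.44, and only HOXA3 of these overlapped between groups. Of 28 HOX genes with enough sites to be fitted, 0 were called, 6 had groups that did not overlap, all higher with TMZ, and the median log2 fold change was 0.06. Over all genes 8.6% did not overlap and were higher, and the median was -0.01. A gene can pass the filter on low counts through its TMZ libraries alone, so the 28 do not stand for all 39.

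The lists of long neuronal and fragile-site genes were among several with medians below 0, and that of the olfactory receptors was -0.20. The 16 long genes of neuronal adhesion and synapses had a median log2 fold change of -0.21, and 0 were called, with 2 not overlapping and lower, against 4.03% of all genes. Their summed G density was 0.840, 0.868 and 0.806 with TMZ and 0.860, 0.915 and 0.936 with solvent. The groups overlapped through solvent replicate 1, and without replicate 1 the difference was -0.0881. CNTNAP2, a neurexin-family adhesion gene, had a log2 fold change of -0.25 ± 0.08 (SE, limma adjusted p = 0.547), CSMD1 -0.27 ± 0.08, RBFOX1, a splicing regulator gene, -0.18 ± 0.07 and NRXN3 0.03 ± 0.08. The 14 giant genes of common fragile sites had a median of -0.15 and each member was below 0, from -0.31 to -0.06, with 0 called and 1 not overlapping. MACROD2 held 821, 2003 and 2620 G sites with TMZ and 155, 853 and 794 with solvent, a log2 fold change of -0.14 ± 0.07 (SE). LRP1B had -0.18 ± 0.09, PTPRD -0.15 ± 0.08 and CTNNA3 -0.25 ± 0.10. Relative to other bases the medians were -0.05 for the neuronal list and -0.000344 for the fragile sites. Summed over the neuronal list, the log2 ratio of G to other sites against that of the autosomes was -0.13 ± 0.04 with TMZ and -0.06 ± 0.03 with solvent (SD, n = 3), without overlap, and the difference of -0.07 was -0.09 without replicate 1.

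The 18 long genes expressed in most cell types had a median log2 fold change of -0.08 with 0 called and 0 that did not overlap, against 8.6% higher and 4.03% lower among all genes. RABGAP1L had -0.13 ± 0.12 (SE), SMYD3 -0.10 ± 0.11, EXOC4 -0.06 ± 0.11 and VPS13B -0.18 ± 0.11. On their transcribed strand the summed log2 ratio was -0.53, -0.30 and -0.28 with TMZ and -0.20, -0.22 and -0.08 with solvent. There the groups did not overlap, and the difference of the means was -0.20, or -0.14 without replicate 1. Naked DNA had -0.27 ± 0.08 (SD, n = 3) on the same measure. The neuronal giants had -0.17 ± 0.03 and -0.15 ± 0.08 (SD, n = 3), with overlap, and -0.12 ± 0.02 in naked DNA.

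The genes of alkylation and base excision repair, which include MGMT and genes that handle other damaged bases, differed between treatments in the strand of their G sites, while their density overlapped. Their 14 members had a summed G density of 1.18 ± 0.03 with TMZ and 1.07 ± 0.10 with solvent (SD, n = 3), with overlap and a ratio of 1.108. The log2 ratio of transcribed to other strand over 13 of them was -0.43, -0.58 and -0.36 with TMZ and 0.39, 0.14 and 0.19 with solvent. All 3 TMZ libraries were below 0 and all 3 solvent libraries above it. The transcribed strand held 91, 187 and 297 G sites with TMZ and 21, 88 and 98 with solvent, and the other strand 123, 279 and 381 with TMZ and 16, 80 and 86 with solvent. The means were -0.70 apart, or -0.63 without replicate 1, and naked DNA had -0.25. Over all 15100 genes with a known strand the difference was -0.13, also without overlap. A large part of the list's G sites lies in MGMT alone, as given below. Neither measure was tested. On the strand measure 4 of 13 lists did not overlap, and they did not share a direction. The share of single genes without overlap was not counted on this measure. The long expressed genes and the zinc fingers, with a difference of -0.16, were also lower with TMZ. The olfactory receptors were higher, at -0.04 with TMZ and -0.30 with solvent, a difference of 0.26 that was 0.10 without replicate 1. The ribosomal protein genes overlapped through solvent replicate 1, with a difference of -0.54 that was -0.85 without replicate 1.

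MGMT, the gene of the protein that reverses the lesion, lies at chr10:129467241-129770983 in the gene table on GRCh38.p14 and was counted over its whole length, since exons were not given. The list as a whole held 228, 489 and 709 G sites with TMZ and 40, 175 and 190 with solvent. MGMT alone held 79, 231 and 284 with TMZ and 17, 74 and 67 with solvent, a large part of these sums. Guanine made up 48.8%, 51.7% and 55.6% of its sites with TMZ and 31.5%, 22.8% and 19.2% with solvent, the rise seen across the genome. Its G density was 0.987 and 0.875 times the autosomal mean, and the log2 fold change was 0.14 ± 0.16 (SE) with a limma adjusted p of 0.872. Of the other members of the list with most sites, OGG1, the glycosylase gene for oxidised guanine, had -0.40 ± 0.26, LIG1, a DNA ligase gene, -0.12 ± 0.31 and PARP1, a sensor of strand breaks, 0.36 ± 0.31. Without replicate 1 these were -0.24, -0.27 and 0.16. Of the 52 named members over all lists, 21 moved by over 1.5 times or changed sign without replicate 1, and 2, KRT7 and OR2L13, moved by more than their SE. The 13 members fitted had a median of 0.04, and 0 were called.

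The 10 mismatch repair genes, whose products act on the lesion after replication, had a median log2 fold change of 0.03 with 0 called and 2 higher without overlap, against 8.6% of all genes. MSH3 had -0.23 ± 0.18 (SE), RFC1 0.08 ± 0.26 and PMS1 0.10 ± 0.24. The 17 genes of strand break and crosslink repair had a median of -0.08, with RAD51B at -0.03 ± 0.10, PRKDC at -0.18 ± 0.16, FANCC at -0.07 ± 0.18 and BLM at -0.15 ± 0.21. Of the 17 glioblastoma driver genes 15 were fitted, with a median of 0.09. CDK6 had -0.18 ± 0.15, NF1 0.14 ± 0.17, EGFR -0.05 ± 0.16 and MET -0.18 ± 0.17. In both lists 0 were called and 1 was higher without overlap, no more than the 8.6% of all genes. EGFR held 101, 183 and 268 G sites with TMZ and 21, 65 and 86 with solvent, and its density was 1.53 and 1.57 times the autosomal mean.

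The remaining lists were gene families. The 467 zinc finger genes of the ZNF series, 460 of them fitted, had a median log2 fold change of -0.12 with 31 higher and 30 lower without overlap, against 8.6% and 4.03% of all genes. Their summed G density was 1.1215 ± 0.0176 with TMZ and 1.1255 ± 0.0308 with solvent (SD, n = 3), with overlap. ZNF407 had -0.12 ± 0.12 (SE), ZNF536 -0.14 ± 0.12, ZNF469 0.16 ± 0.16 and ZNF423 0.08 ± 0.14. Of 389 olfactory receptor genes 121 were fitted, with a median of -0.20, and OR2L13 had -0.02 ± 0.27, OR9Q1 -0.20 ± 0.23, OR1J2 -0.35 ± 0.21 and OR51B5 -0.36 ± 0.23. Summed over the 389, G density was 0.88 ± 0.07 with TMZ and 0.90 ± 0.14 with solvent (SD, n = 3), with overlap. Of 73 ribosomal protein genes 50 were fitted, with a median of 0.04, and RPS3 had 0.02 ± 0.33, RPS24 0.03 ± 0.45, RPS29 -0.33 ± 0.39 and RPL3L 0.27 ± 0.52. Of 53 clustered protocadherin genes 42 were fitted, with a median of 0.06. Their largest members, PCDHA1 to PCDHA4, share a 3′ part and most of their sites and ranged from -0.12 ± 0.17 in PCDHA4 to -0.04 ± 0.16 in PCDHA1, with PCDHA2 at -0.05 and PCDHA3 at -0.09. Of 149 keratin and keratin-associated genes 38 were fitted, with a median of -0.08, and KRT8 had 0.10 ± 0.24, KRT86 -0.10 ± 0.31, KRT80 0.42 ± 0.34 and KRT7 0.56 ± 0.45. KRT7 had 0 G sites in solvent replicate 1, and its log2 fold change was 0.03 without replicate 1. Without replicate 1, RPS24 was at -0.24 and OR2L13 at -0.32. In all 5 families 0 were called. Members with near-identical copies depend on how the authors' mapping placed their reads.

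**Figure D5:**
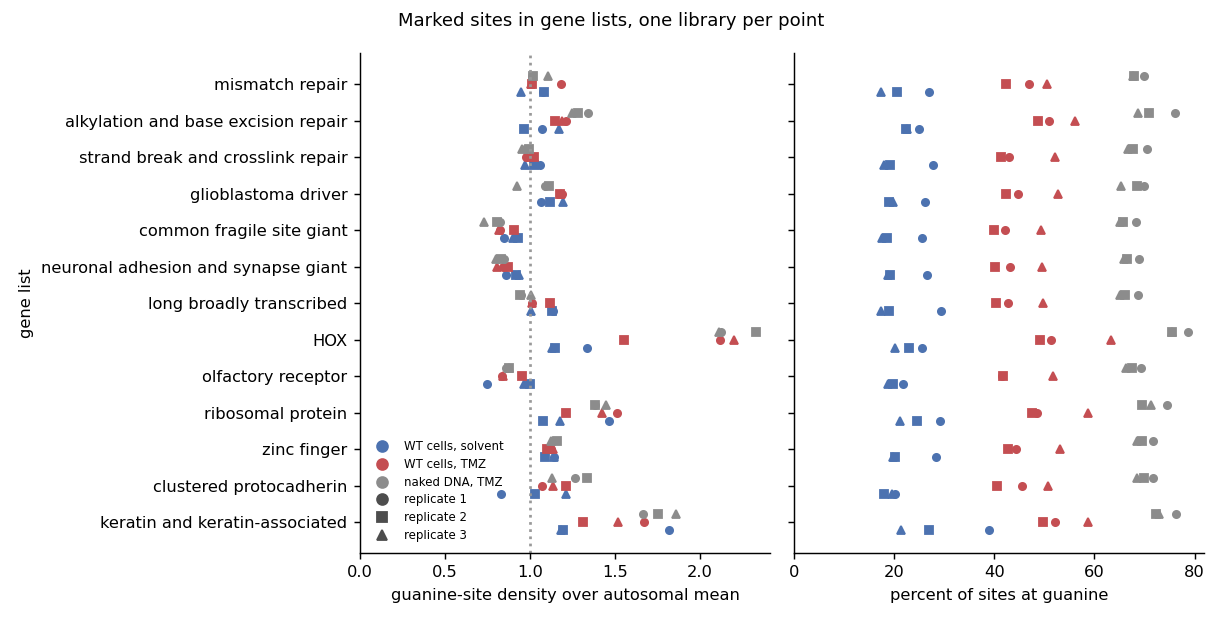
Density of guanine sites over the autosomal mean (left) and percent of sites at guanine (right) in 13 gene lists, 1 point per library. HOX lies at 1.56 to 2.20 with TMZ and 1.13 to 1.34 with solvent, and the percent at guanine is higher with TMZ in every list.

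Every one of the 13 lists had a higher guanine share with TMZ, with no overlap between groups. The shares were summed gene by gene, and a site in overlapping genes entered for each of them. The difference ran from 22.4 points in the long expressed genes to 31.7 points in HOX, where the shares were 54.6% ± 7.59 and 22.9% ± 2.69 (SD, n = 3). The genome-wide difference was 24.2 points.

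The mitochondrial chromosome, a small circular genome present in many copies, took a smaller share of G sites after TMZ. It held 0.269%, 0.206% and 0.147% of G sites in the TMZ replicates and 0.471%, 0.396% and 0.327% in the solvent replicates. The groups did not overlap, and the mean log2 percent was 0.97 lower with TMZ (exact permutation p = 0.1, adjusted 0.157), or 1.05 lower without replicate 1. When positions also marked by the same-numbered library of the other treatment were left out, the difference turned to 0.34 in the other direction. Of the 6 libraries, solvent replicate 1 had the fewest G sites in all, 165977, and the highest share. TMZ replicate 3 had the most, 2634821, and the lowest share. Whether the number of G sites in a list gave the difference was not tested. Of sites at the other bases, 0.372% ± 0.020 with TMZ and 0.367% ± 0.098 with solvent lay there (SD, n = 3). The chromosome offers few positions: 2238 to 3878 distinct guanines were marked per TMZ library and 782 to 3170 per solvent library. Within it guanine took 35.6%, 29.2% and 31.2% of sites with TMZ and 27.5%, 22.7% and 21.03% with solvent, which also did not overlap. Of its G sites 79.0%, 73.0% and 72.7% lay on the reverse strand with TMZ and 72.9%, 70.3% and 68.9% with solvent. The groups overlapped there, and naked DNA had 71.6% ± 1.14 (SD, n = 3). The number of guanines on each strand was not corrected for.

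The G sites that naked DNA also marks were 5.06% ± 0.72 of all with TMZ and 14.01% ± 19.2 with solvent (SD, n = 3). The exact permutation p was 1, and solvent replicate 1 decided the value. Without replicate 1 the shares were 4.69% and 2.91%, with TMZ 1.78 points higher. The spread of G density over 1 Mb bins, the SD of log2 density after the counting variance was taken off, was 0.79 ± 0.03 with TMZ and 0.74 ± 0.02 with solvent (SD, n = 3), with overlap. The difference of 0.05 had an exact permutation p of 0.2. At a score minimum of 40 it was 0.13 with p of 0.1 by the same exact test, and with no score minimum it was 0.03.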

How the data were processed

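The authors deposited 1 list of sites per library, with chromosome, position, strand, base and a score, and no header. Positions were counted from 0 in the lists and are given here from 1. The deposited score ran from 0 to 42, like an alignment score, and is not a number of reads. Per the submitters' processing notes, FastQC 0.11.9, Trimmomatic 0.38 and 0.39, cutadapt, Bowtie2 2.3.5.1, GATK 4.2.0.0, SAMtools 1.12 and bedtools 2.29.2 were used with the builds GRCh38 and hg38; their settings are not given in the sources used here.

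Sites with a score of 30 or more on chromosomes 1 to 22 and M were kept, each counted 1 time. Genes and their coordinates came from a RefSeq table and promoter sequence and gene strand from a RefSeq promoter table, both on GRCh38.p14. A total of 11 single values per library were compared by exact two-sided permutation tests, adjusted with the Benjamini-Hochberg method. Numbers of G sites per 1 Mb bin or gene were fitted with limma's voom (trimmed-mean sizes) and log2 ratios of G to other sites with limma-trend and a prior of 0.5 sites, over 24 cell libraries in 8 groups, keeping features that reached 10 sites in 3 or more libraries. The fits were tested on simulated data, where they recovered 2-fold changes in bins but missed most or all of them in genes. Smaller changes, the size seen in nearly all bins, were not simulated, nor were deviations shared by same-numbered libraries. Calls are at an adjusted p of 0.05.

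Features to be named were at most 5 bins and 10 genes per direction past the threshold without overlap between groups, or else the 3 per direction of smallest unadjusted p; the 3 highest and lowest contexts; the 4 members of each gene list with most G sites; and MGMT. The values of 1 such member are not reported here. The genes singled out in sequence windows were chosen by how many libraries marked them. Members, lists and tests were chosen with earlier results of these data known, and alternatives are in the closing section. The work used Python 3.11.15, numpy 2.4.6, pandas 2.3.3, scipy 1.17.1, R 4.3.3 and limma 3.58.1.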

Additional observations from a re-analysis of the deposited data

Results flagged for a closer look

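Sites outside the comparisons showed the same difference, and each is listed because every TMZ library lay above every solvent library there. On chromosome X guanine took 44.1% ± 5.42 of sites with TMZ and 21.3% ± 4.33 with solvent (SD, n = 3), and the difference was 26.003 points without replicate 1. Among sites with a score below 30 on chromosomes 1 to 22 and M it took 41.1% ± 6.502 and 20.3% ± 0.58. On other contigs it took 40.4% ± 4.55 and 20.5% ± 1.70 at any score, and 38.7% ± 4.85 and 19.9% ± 4.46 at a score of 30 or more, where a library held 1022 to 7527 sites. Without replicate 1 these 3 differences were 23.7, 21.8 and 22.04 points.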

How the results depend on the processing

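Of 188 alternatives over 18 results, 177 kept their direction and their side of the threshold, or a count within 1.5 times. The mitochondrial share of G sites turned to 0.34 (log2) without positions shared with the same-numbered library of the other treatment. The share of G sites also marked in naked DNA ran from -14.5 to 1.78 points when 1 replicate was left out, and was positive only without replicate 1. The count of called 1 Mb bins for G density, 1 as reported, was 0 on only the 6 libraries, 454 with sample quality weights in voom (237 higher and 217 lower), 13 without shared positions, 3 of 569 in 5 Mb bins, and 0 to 1 when 1 replicate was left out, with 0 without replicate 2. The cause was not tested, except that the 5 Mb setting tests fewer bins.

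Same-numbered libraries deviated together over bins in replicates 1 and 2 (r = 0.349 and 0.585) but not in replicate 3 (-0.0538), and TMZ replicate 3 was closest to solvent replicate 1 (0.289), so the numbers were not taken to pair the libraries. Over genes the same-numbered libraries had r = 0.0916, 0.106 and 0.0601, each the highest for its TMZ library but not each over 0.1, and each TMZ library shared more G positions with its same-numbered solvent library than with the others. With the replicate block 6 bins were called (2 higher and 4 lower). On only the 6 libraries with replicate block, a setting added after the data were seen, the counts were 18 bins for G density, 1 bin for G over other bases and 2 genes for G density, CDH18 and CNTNAP2, both lower. The block changed no other call. With 3 pairs the sign-flip test cannot go below 0.25, and with 3 libraries per group no single value could pass 0.05, so those labels say nothing about stability. Solvent replicate 1 had few sites, so its own gene and context values rest on low counts.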

Other observations

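Marked adenines also differed in their neighbours, although adenine took a smaller share of sites after TMZ. In the promoter windows the base after a marked adenine was guanine in 52.1%, 46.2% and 55.3% of cases in the TMZ replicates and in 38.6%, 40.1% and 39.4% in the solvent replicates. The groups did not overlap, the means were 51.2% ± 4.61 and 39.3% ± 0.73 (SD, n = 3), and naked DNA had 59.1% ± 1.28. The base before a marked thymine was guanine in 25.3% ± 1.03 with TMZ, 19.4% ± 1.04 with solvent and 33.7% ± 4.32 in naked DNA. For marked cytosines the share with guanine after was 35.7% ± 2.62 and 34.6% ± 1.98. Between 1107 and 2733 marked adenines per TMZ library and 316 and 2192 per solvent library entered.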
